A study of Mus musculus with 6 samples.

Results

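The genes described here encode the enzymes of glycolysis, gluconeogenesis and glycogen metabolism in mouse liver, together with some of their regulators. They were chosen by gene symbol from a fixed list of 36 names, and all 36 were found among the 15092 genes of the expression table. The series holds liver messenger RNA of C57BL/6J mice, as 3 libraries labelled CRY1 KO and 3 labelled WT. The labels give hepatocyte as the cell type, and the sources used here do not give the allele, age, sex, feeding state or time of day. All titles carry the prefix NC, which is not explained. Nothing says that replicates were separate animals, so p-values measure the spread between these libraries, which may be partly technical.

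Liver takes up glucose after meals and releases it between meals. Glycolysis breaks glucose down to pyruvate, gluconeogenesis builds glucose from pyruvate, lactate and amino acids, and most steps are run in both directions by the same enzymes. The opposing routes differ at a few committed steps, where separate enzymes work in each direction. Among these are phosphofructokinase against fructose bisphosphatase, and pyruvate kinase against pyruvate carboxylase and phosphoenolpyruvate carboxykinase. Glycogen, the stored form of glucose, is made by glycogen synthase and branching enzyme and broken down by glycogen phosphorylase. CRY1 is a clock repressor that is also known to restrain gluconeogenic gene expression in mouse liver.

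Cry1 was measured first, as a check on the labels. Its level was 6.95, 6.41 and 5.22 CPM in CRY1 KO 1, 2 and 3, against 4.80, 6.89 and 7.24 CPM in WT 1, 2 and 3 (log2 difference -0.03, SE 0.19, edgeR adjusted p = 0.954). CPM are estimated counts scaled to the TMM-adjusted library size. The groups overlapped, and a value for the whole gene cannot show whether an exon is missing, so the knockout is not checked by it and every direction below is that of the libraries labelled CRY1 KO. Library totals lay between 79708703 and 91316332 estimated counts. All 9 hepatocyte markers were present, with their summed level between 77287 and 91817 CPM, while 1 of 6 skeletal muscle markers and 2 of 5 adipocyte markers were in the table. In a principal component analysis, WT 2 was farthest out on component 1 (34.2%), at 48.33, with WT 3 at 23.91 and WT 1 at 12.14. Libraries labelled CRY1 KO lay there between -32.51 and -23.21. On component 2 (22.6%) WT 1 lay at -48.80, WT 3 at 32.40 and the others between -4.81 and 9.73. WT 1 was thus not the only library set apart. Over all genes, edgeR called 844 without WT 3 and 565 without WT 1, against 235 with all libraries. Members whose call or size depended on WT 1 are also given without it.

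Of the 36 genes, 1 passed edgeR's quasi-likelihood test at an adjusted p under 0.05 over 13816 tested genes. It was Gys2, which was higher in the libraries labelled CRY1 KO. The background was 1.7% of tested genes called, 1.06% higher and 0.644% lower. No member was called lower by edgeR or by DESeq2, and 1, Ldha, was lower at an unadjusted p under 0.05, against 7 that were higher. At that threshold 10.9% of all tested genes were higher and 9.84% lower, beside 19.4% and 2.78% of the members. DESeq2 called 3 members, Gys2, Ugp2 and Slc37a4, all higher. That is 8.33% of the 36, beside a background of 9.29% of tested genes called and 5.32% called higher, so the DESeq2 share was near the background. Among all called genes 146 of 235 were higher, and this split was 116 of 227 with upper-quartile scaling and 59 of 113 with library totals alone.

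In 12 of the 36 genes (33.3%) no library labelled CRY1 KO overlapped with a WT library, against 27.3% of tested genes. In 11 of these the libraries labelled CRY1 KO were higher, against a background of 14.6%, and in 1 they were lower, against 12.7%. The 11 were Pfkfb3, Gpi1, Aldoa, Pck1, Slc37a4, Fbp1, Gys2, Gbe1, Ugp2, Pygl and Phkb, and the 1 was Ldha. With upper-quartile scaling or library totals 10 of the 36 members did not overlap, 9 of them higher. Of all tested genes 27.5% did not overlap with upper-quartile scaling and 22.6% with library totals. With upper-quartile scaling the share of members without overlap was thus near that of all genes. The median log2 difference of the members was 0.15, beside -0.02 for all tested genes. It was positive in 23 of 36 members (63.9%), against 47.3% of tested genes. The median of the members was 0.24 without WT 1 and 0.10 without WT 3.

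**Figure D1:**
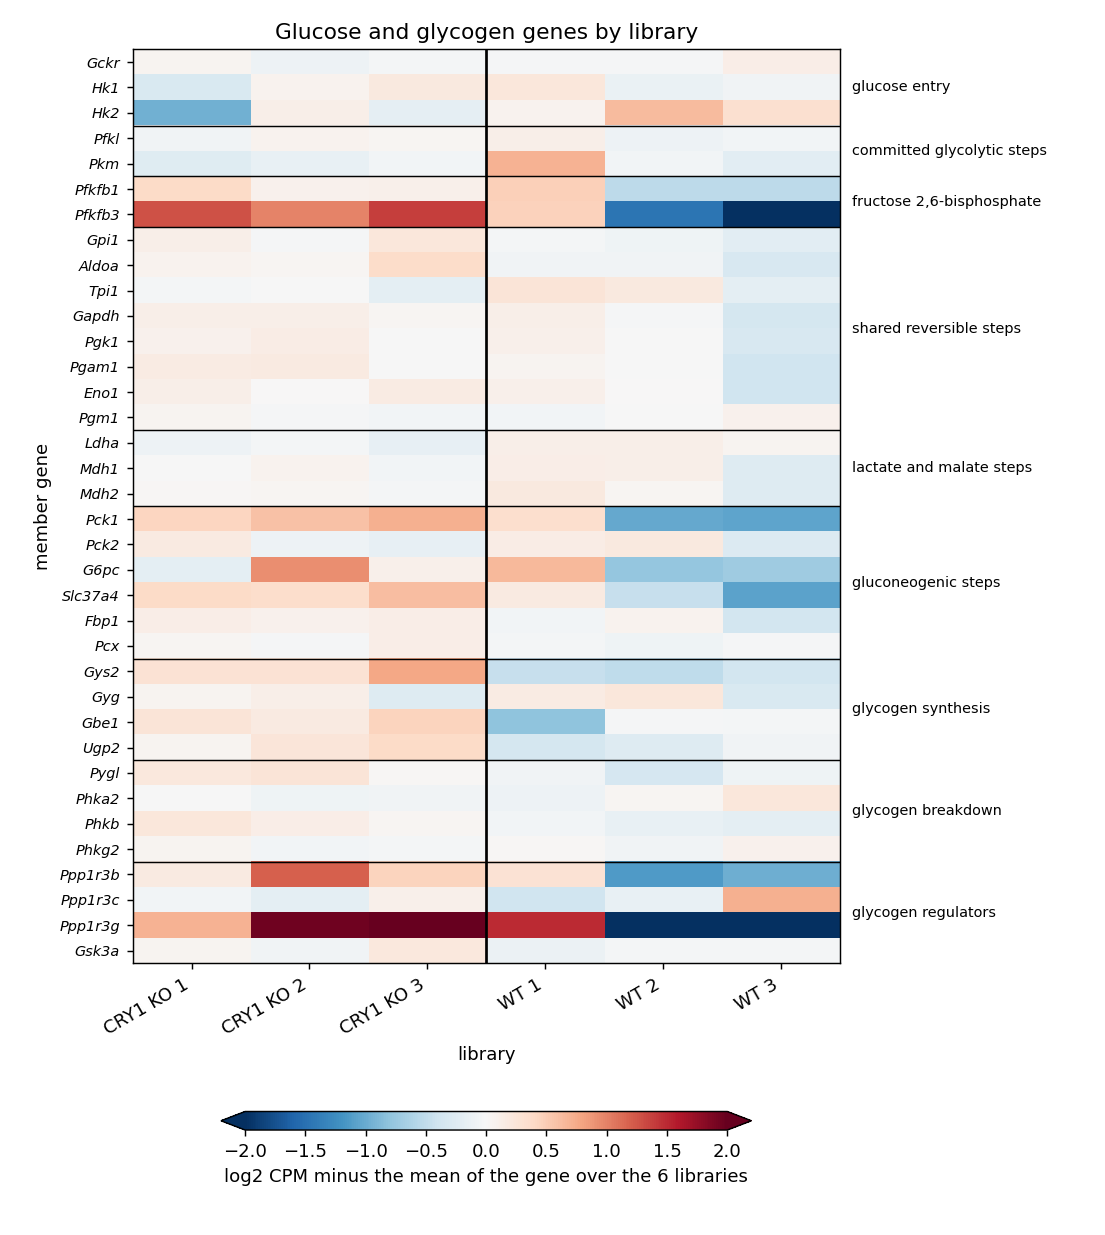
Each row is a gene and each column a library, with libraries labelled CRY1 KO left of WT; colour gives log2 CPM minus the mean of the gene over the 6 libraries and is capped at both ends of the scale. Gys2 is high in all 3 libraries labelled CRY1 KO and low in all 3 WT libraries, whereas Pck1, G6pc, Ppp1r3b and Ppp1r3g are low in WT 2 and WT 3 but not in WT 1.

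Promoter sequences of 34 of the 36 genes were at hand from RefSeq (build GRCm38.p6, another build than that of the deposited values), from 250 bases before to 50 bases after the start site. Gys2 and Ppp1r3b had none. Below are the promoter windows of 3 genes, each shown because it holds a searched motif and because the gene stands out in the results: Pfkfb3 had the highest fitted fold difference of the members, G6pc overlapped between groups through WT 1, and Ldha was the lower of the non-overlapping genes. Capitals mark matches to the E-box CACGTG, which clock activators bind, the D-box TTANNTAA, which PAR bZIP factors bind, or the cyclic AMP response element TGACGTCA. Both strands were searched, also for the FOXO element TGTTTAC.

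Pfkfb3, chr2:11502041-11502340, minus strand, 1 of the windows of this gene: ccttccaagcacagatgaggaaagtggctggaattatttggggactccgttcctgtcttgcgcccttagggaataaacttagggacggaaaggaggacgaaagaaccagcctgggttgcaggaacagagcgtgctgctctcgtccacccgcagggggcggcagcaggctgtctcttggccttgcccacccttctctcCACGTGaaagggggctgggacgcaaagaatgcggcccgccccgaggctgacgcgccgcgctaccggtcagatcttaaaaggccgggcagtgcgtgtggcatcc

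G6pc, chr11:101367466-101367765, plus strand: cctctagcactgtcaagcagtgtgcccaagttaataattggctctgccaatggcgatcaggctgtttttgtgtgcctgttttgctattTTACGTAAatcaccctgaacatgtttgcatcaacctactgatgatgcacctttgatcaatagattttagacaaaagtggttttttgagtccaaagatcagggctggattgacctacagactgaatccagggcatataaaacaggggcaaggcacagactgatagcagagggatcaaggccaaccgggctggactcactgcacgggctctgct

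Ldha, chr7:46845554-46845853, plus strand, 1 of the windows of this gene: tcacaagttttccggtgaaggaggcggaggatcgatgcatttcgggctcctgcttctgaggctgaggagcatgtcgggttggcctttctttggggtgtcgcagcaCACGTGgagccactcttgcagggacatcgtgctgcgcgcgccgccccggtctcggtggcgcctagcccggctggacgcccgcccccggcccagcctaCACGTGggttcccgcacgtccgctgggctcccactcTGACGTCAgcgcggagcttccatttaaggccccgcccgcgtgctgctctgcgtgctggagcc

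The Pfkfb3 window holds an E-box starting at position -53 from the start site, and the G6pc window a D-box match at -162. The Ldha window holds E-boxes at -145 and -48 and a cyclic AMP response element at -12. Over 49 windows of the members the E-box was found in 5 (10.2%, against 7.15% of 32851 windows of all genes) and the D-box in 2 (4.08%, against 6.0%). The cyclic AMP response element was found in 2 (4.08%, against 1.79%) and the FOXO element in 0 (against 3.65%). The remaining E-boxes were in windows of Gyg, Pcx and Ppp1r3c, whose log2 differences were -0.07, 0.10 and -0.18 and did not pass. A match describes the letters in these windows and is not a binding site.

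Glycogen synthesis held the called gene. Gys2, the liver glycogen synthase, stood at 174, 173 and 242 CPM in CRY1 KO 1, 2 and 3, against 103, 99.4 and 110 CPM in WT 1, 2 and 3. All 3 libraries labelled CRY1 KO lay above all 3 WT libraries, and CRY1 KO 3 was the highest. The level rose to 196 ± 39.4 CPM in libraries labelled CRY1 KO, against 104.1 ± 5.31 CPM in WT (SD, n = 3 each), a 1.88-fold difference (log2 0.91, SE 0.14, edgeR adjusted p = 0.0273; 95% interval from limma 0.59 to 1.20). The call was lost without CRY1 KO 1 (log2 0.996, adjusted p = 0.0644), without CRY1 KO 2 (0.996, adjusted p = 0.0842), without WT 2 (0.88, adjusted p = 0.132) and with library totals as the scaling (0.90, adjusted p = 0.0596). Without CRY1 KO 3 it was called with a smaller difference (log2 0.74, adjusted p = 0.0457).

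Ugp2 makes UDP-glucose, the substrate of glycogen synthase. It stood at 324, 370 and 408 CPM in CRY1 KO 1, 2 and 3, against 244, 261 and 298 CPM in WT 1, 2 and 3. No library of either group overlapped with the other, and the difference did not pass (log2 0.46, SE 0.12, edgeR adjusted p = 0.0845). DESeq2 called it (adjusted p = 0.0102), and so did edgeR without WT 3 (log2 0.54, adjusted p = 0.0412). Gbe1, the glycogen branching enzyme, stood at 92.7, 87.8 and 106 CPM in CRY1 KO 1, 2 and 3, against 44.3, 76.03 and 75.8 CPM in WT 1, 2 and 3. All libraries labelled CRY1 KO were higher than all WT libraries, WT 1 was the lowest, and the difference did not pass (log2 0.55, SE 0.21, edgeR adjusted p = 0.203). Without WT 1 it was 0.33 (edgeR adjusted p = 0.13). Gyg, the glycogenin that primes new glycogen, was low and alike in both groups, at 4.49 ± 0.59 CPM in libraries labelled CRY1 KO and 4.71 ± 0.89 CPM in WT (SD, n = 3 each; log2 -0.07, 95% interval from limma -0.49 to 0.38).

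On the breakdown side, Pygl, the liver glycogen phosphorylase, stood at 565, 584 and 500 CPM in CRY1 KO 1, 2 and 3, against 467, 388 and 463 CPM in WT 1, 2 and 3. Again there was no overlap. The difference pointed the same way as that of Gys2 and did not pass (log2 0.32, SE 0.11, edgeR adjusted p = 0.152). Phosphorylase kinase, which activates the phosphorylase, is built of several subunits, and its beta subunit gene Phkb stood at 21.6, 20.3 and 18.9 CPM in CRY1 KO 1, 2 and 3, against 17.6, 16.7 and 16.0 CPM in WT 1, 2 and 3 (log2 0.27, SE 0.10, edgeR adjusted p = 0.165). The groups did not overlap for Phkb, whereas they overlapped for the alpha subunit gene Phka2 (log2 -0.12) and the catalytic gamma subunit gene Phkg2 (log2 -0.03). The limma 95% intervals of Phka2 and Phkg2 ran from -0.36 to 0.12 and from -0.23 to 0.18.

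Regulators of glycogen differed widely in how much they varied between libraries. Ppp1r3b encodes a subunit that targets protein phosphatase 1 to liver glycogen and so favours its synthesis. It stood at 137, 277 and 163 CPM in CRY1 KO 1, 2 and 3, against 147, 55.2 and 61.0 CPM in WT 1, 2 and 3. WT 1 lay inside the range of the libraries labelled CRY1 KO, and WT 2 and WT 3 lay below it. The difference did not pass with all libraries (log2 1.13, SE 0.50, edgeR adjusted p = 0.282) or without WT 1 (log2 1.73, edgeR adjusted p = 0.0558). Ppp1r3g, another glycogen-targeting subunit of the same phosphatase, had estimated counts of 298, 720 and 896 in CRY1 KO 1, 2 and 3, against 552, 16 and 33 in WT 1, 2 and 3. Its WT libraries spanned 33.7-fold, and again only WT 2 and WT 3 lay below the libraries labelled CRY1 KO (log2 1.73, SE 1.39, edgeR adjusted p = 0.532). The size of this difference depended on the method, being 3.14 by limma (adjusted p = 0.307) and 3.31 with a replicate block (edgeR adjusted p = 0.456). Without WT 1 it was called (log2 4.82, adjusted p = 0.0122). A span of at least 4-fold within a group was found in 2 members, Ppp1r3g and Pfkfb3 (5.56%, against 6.69% of tested genes). Ppp1r3c, which encodes a further subunit of this kind, overlapped between groups, its highest value being 53.7 CPM in WT 3 (log2 -0.18, 95% interval from limma -0.78 to 0.58), and Gsk3a, a kinase that inhibits glycogen synthase, also overlapped (log2 0.14, 95% interval -0.08 to 0.36).

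**Figure D2:**
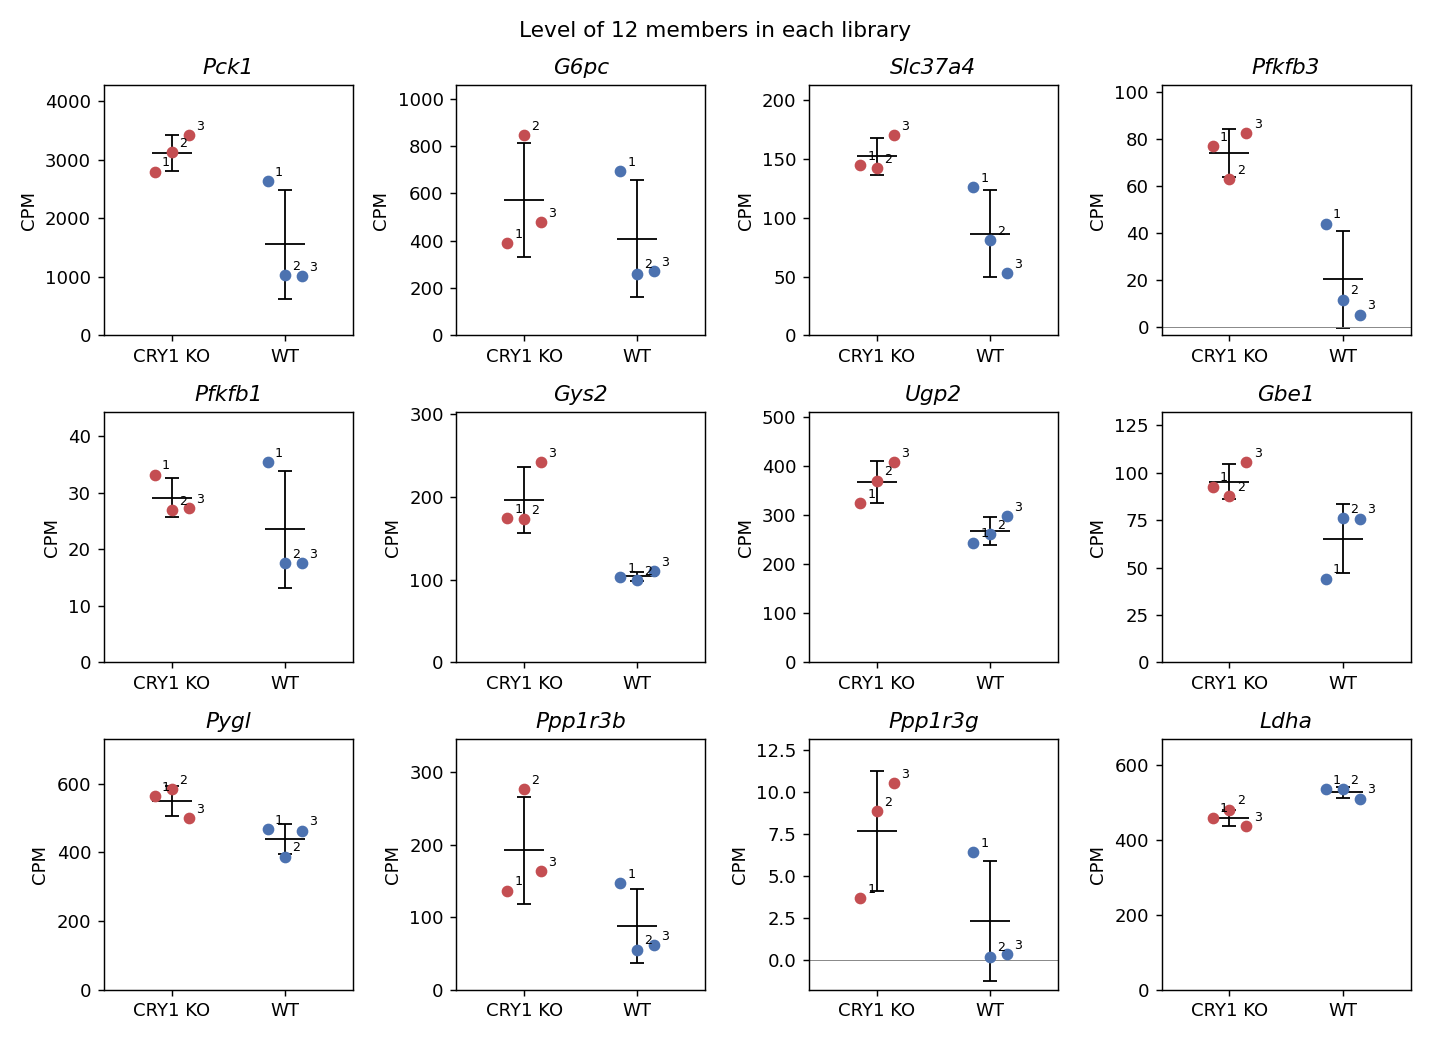
CPM of 12 genes in each library, with libraries labelled CRY1 KO left of WT and replicate numbers beside the points; horizontal bars are means and whiskers SD (n = 3 each), which reach below 0 for Pfkfb3 and Ppp1r3g in WT. Gys2, Ugp2, Gbe1 and Pygl separate the groups, while for G6pc, Pfkfb1, Ppp1r3b and Ppp1r3g WT 1 lies with or above the libraries labelled CRY1 KO.

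Among gluconeogenic genes, none was called by edgeR with all 6 libraries, 1 was higher at an unadjusted p under 0.05 and DESeq2 called that one, Slc37a4. Pck1, the cytosolic phosphoenolpyruvate carboxykinase that is a classic marker of gluconeogenic transcription, stood at 2789, 3125 and 3418 CPM in CRY1 KO 1, 2 and 3, against 2633, 1024 and 1006 CPM in WT 1, 2 and 3. The groups did not overlap, but WT 1 lay close under the libraries labelled CRY1 KO and far above the other WT libraries. The mean was 3111 ± 315 CPM in libraries labelled CRY1 KO and 1554 ± 934 CPM in WT (n = 3 each, with SD; log2 1.001, SE 0.41, edgeR adjusted p = 0.246). Without WT 1 the log2 difference was 1.62 and was called (adjusted p = 0.00117).

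Slc37a4 carries glucose 6-phosphate into the endoplasmic reticulum, where it is hydrolysed. It stood at 145, 142 and 170 CPM in CRY1 KO 1, 2 and 3, against 126, 80.7 and 53.0 CPM in WT 1, 2 and 3. There was no overlap, WT 1 being the highest of WT, and edgeR did not call the difference (log2 0.82, SE 0.31, edgeR adjusted p = 0.21; DESeq2 adjusted p = 0.0203). It was called by edgeR without WT 1 (log2 1.19, adjusted p = 0.0152). G6pc, the glucose 6-phosphatase that completes this step, stood at 389, 846 and 478 CPM in CRY1 KO 1, 2 and 3, against 694, 261 and 270 CPM in WT 1, 2 and 3. The groups overlapped through WT 1, and CRY1 KO 2 was the highest library. The difference did not pass (log2 0.48, SE 0.52, edgeR adjusted p = 0.646). It was 1.10 without WT 1 (edgeR adjusted p = 0.172) and 0.086 without CRY1 KO 2 (edgeR adjusted p = 0.958).

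Fbp1, the fructose bisphosphatase of liver, was nearly constant in the libraries labelled CRY1 KO, at 640, 623 and 640 CPM, against 563, 613 and 453 CPM in WT 1, 2 and 3 (log2 0.22, SE 0.12, edgeR adjusted p = 0.326). The groups did not overlap, although WT 2 lay close under CRY1 KO 2. Pcx, pyruvate carboxylase, stood at 426 ± 24.7 CPM in libraries labelled CRY1 KO and 398 ± 9.30 CPM in WT (SD, n = 3 each; log2 0.10, 95% interval from limma -0.10 to 0.29). Pck2, the mitochondrial form of phosphoenolpyruvate carboxykinase, was low in both groups (log2 -0.06, 95% interval -0.49 to 0.38).

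Fructose 2,6-bisphosphate is the signal that activates phosphofructokinase and inhibits fructose bisphosphatase, and it is made and removed by bifunctional PFKFB enzymes. Pfkfb3, the form with the strongest kinase activity, stood at 76.7, 62.7 and 82.3 CPM in CRY1 KO 1, 2 and 3, against 43.8, 11.5 and 5.07 CPM in WT 1, 2 and 3. All libraries labelled CRY1 KO were above all WT libraries, and WT 1 was again the highest of WT. With all libraries the 3.68-fold difference did not pass (log2 1.88, SE 0.84, edgeR adjusted p = 0.291). By limma it was larger and did not pass either (log2 2.42, 95% interval 0.24 to 4.60, adjusted p = 0.208). Without WT 1 it was called (log2 3.16, adjusted p = 0.0252). Pfkfb1, the liver form whose balance is set by glucagon through phosphorylation, stood at 33.2, 27.0 and 27.3 CPM in CRY1 KO 1, 2 and 3, against 35.4, 17.6 and 17.6 CPM in WT 1, 2 and 3. WT 1 was the highest of the 6 libraries, and the difference (log2 0.31, SE 0.29, edgeR adjusted p = 0.592) was called without WT 1 (log2 0.73, adjusted p = 0.0184).

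Without WT 1, edgeR called 6 of the 36 genes, all higher: Pck1, Slc37a4, Pfkfb1, Pfkfb3, Gys2 and Ppp1r3g. That is 16.7% of the members, beside a background of 4.04% of tested genes called and 2.57% called higher in that fit. It was the largest count of members with any 1 library left out, and without WT 3 the called members were Gys2 and Ugp2. For all of the 6 but Gys2, WT 1 was the highest WT library, so leaving it out lowers the WT mean. The count therefore follows in part from which library was left out. In 4 members, G6pc, Gapdh, Ppp1r3b and Ppp1r3g, WT 1 lay within the range of the libraries labelled CRY1 KO and WT 2 and WT 3 lay below it (11.1%, against 3.75% of tested genes). This way of counting was chosen after the values were seen. The variation within WT was larger than within CRY1 KO in 25 of 36 members (69.4%, against 63.8% of tested genes). The median coefficient of variation of the members was 8.25% in libraries labelled CRY1 KO and 15.2% in WT. Over all tested genes it was 10.1% and 14.2%, so WT varied more there too.

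Genes that respond to fasting and glucocorticoids moved with WT 1 in the same way. Over 15 tested genes of such a list the median log2 deviation from the gene mean was 0.42, 0.54 and 0.70 in CRY1 KO 1, 2 and 3, against 0.30, -1.08 and -1.18 in WT 1, 2 and 3. Lpin1, which responds to both, stood at 320, 585 and 775 CPM in CRY1 KO 1, 2 and 3, against 418, 27.9 and 22.6 CPM in WT 1, 2 and 3. Tat, a glucocorticoid-induced aminotransferase, stood between 1580 and 2197 CPM in libraries labelled CRY1 KO, against 2105, 783 and 557 CPM in WT 1, 2 and 3. Of the 15 genes, 1 was called by edgeR, Cpt1a, which was higher, beside 1.06% of tested genes called higher. DESeq2 called 6 of the 15 higher and 0 lower, beside 5.32% of tested genes called higher. Without WT 1 edgeR called 10, beside 4.04% of tested genes called in that fit. This count, too, follows in part from which library was left out. In 8 of the 15 the groups did not overlap, with the libraries labelled CRY1 KO higher in all 8, against 14.6% of tested genes. A span of at least 4-fold within a group was found in 7 of the 15, against 6.69% of tested genes. Whether feeding or hormone state has a part in the levels of Pck1, G6pc, Pfkfb3 or the other members was not tested.

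**Figure D3:**
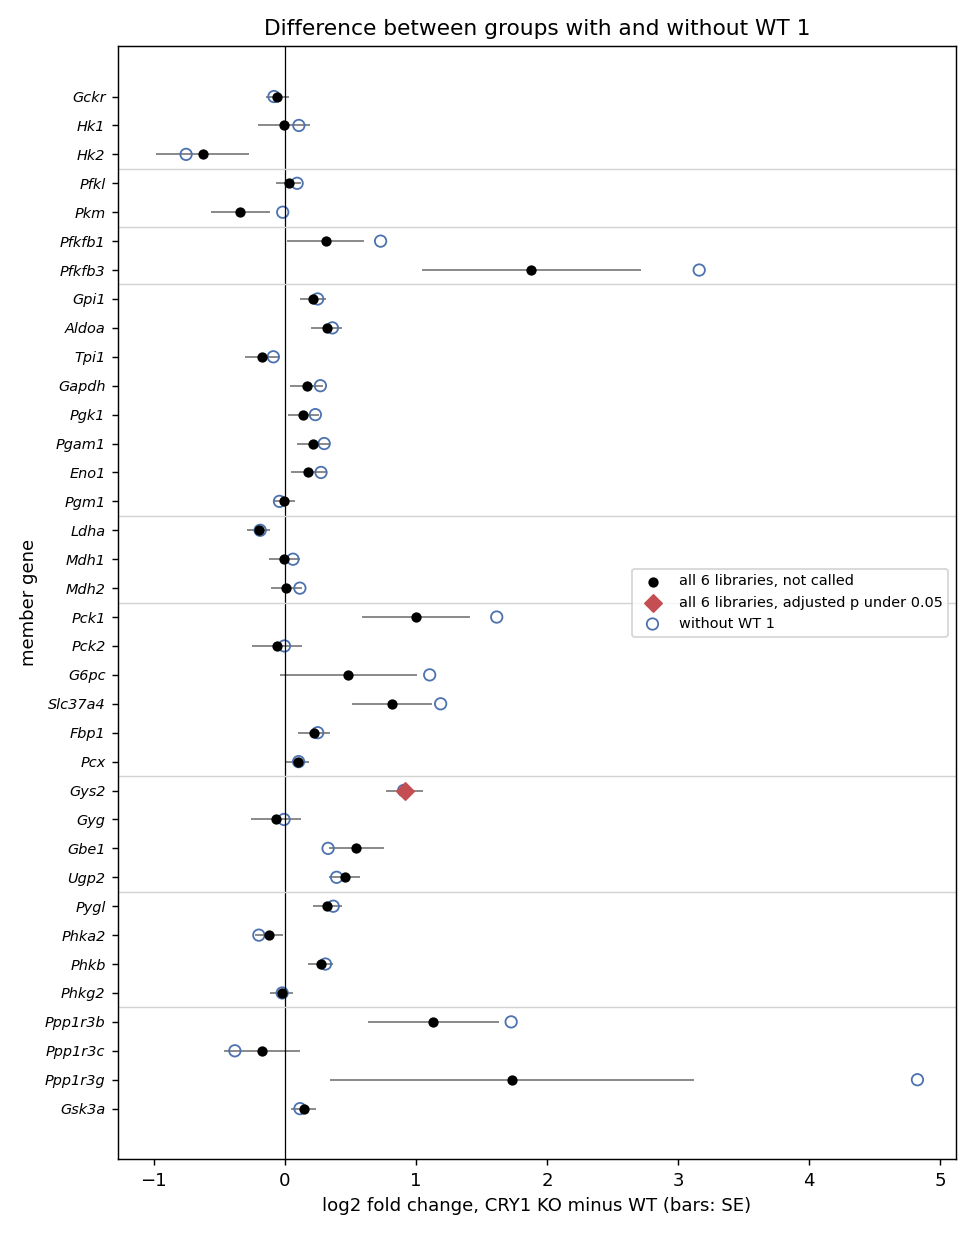
Log2 fold change of each gene, CRY1 KO minus WT; filled points with SE bars use all 6 libraries, the diamond marks Gys2 (adjusted p under 0.05), and open circles leave out WT 1. The open circles lie farthest to the right of the filled points for Ppp1r3g (4.82 against 1.73) and Pfkfb3 (3.16 against 1.88), while those of Gys2 nearly coincide.

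The enzymes shared by both directions showed small differences, and 0 of 8 were called by edgeR or DESeq2, with 1 at an unadjusted p under 0.05. Aldoa, an aldolase, stood at 89.4, 87.1 and 110 CPM in CRY1 KO 1, 2 and 3, against 81.0, 80.6 and 67.9 CPM in WT 1, 2 and 3 (log2 0.32, SE 0.12, edgeR adjusted p = 0.182). Gpi1, glucose phosphate isomerase, stood at 160, 145 and 172 CPM in CRY1 KO 1, 2 and 3, against 144, 140 and 128 CPM in WT 1, 2 and 3 (log2 0.21, SE 0.10, edgeR adjusted p = 0.258). The groups did not overlap for these genes, but CRY1 KO 2 and WT 1 nearly met for Gpi1. The other 6, Tpi1, Gapdh, Pgk1, Pgam1, Eno1 and Pgm1, had log2 differences between -0.17 and 0.22, and their groups overlapped. Gapdh, Pgk1, Pgam1 and Eno1, which act in succession in the lower part of the pathway, were lowest in WT 3, at 649, 180, 71.1 and 283 CPM. This was not particular to these genes. WT 3 was also the lowest library for other members, among them Aldoa, Gpi1, Tpi1, Fbp1, Mdh1 and Mdh2, and the highest for Pgm1. Values of Gapdh and Eno1, which have near-identical copies elsewhere in the genome, depend on how shared reads were assigned.

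At the committed glycolytic steps and at glucose entry 0 of 5 members were called by edgeR or DESeq2 and 0 had an unadjusted p under 0.05. Pfkl, the liver phosphofructokinase, stood at 30.6, 33.6 and 32.9 CPM in CRY1 KO 1, 2 and 3, against 34.6, 29.9 and 30.8 CPM in WT 1, 2 and 3, and its 95% interval from limma ran from -0.18 to 0.24. Gckr, which encodes a regulatory protein of glucose entry, had a log2 difference of -0.06 (95% interval -0.26 to 0.15). Hk1 and Hk2, hexokinases of most other tissues, were near 3.58 and 0.682 CPM in libraries labelled CRY1 KO and 3.60 and 1.05 CPM in WT. Pkm, the pyruvate kinase of most tissues outside liver, stood at 12.1, 12.9 and 13.7 CPM in CRY1 KO 1, 2 and 3, against 22.98, 13.8 and 12.4 CPM in WT 1, 2 and 3, so that WT 1 alone was high (log2 -0.34, SE 0.23, edgeR adjusted p = 0.421). Without WT 1 the log2 difference was -0.017. WT 1 also had the highest summed levels of Kupffer cell and red blood cell markers. All 9 Kupffer cell markers were in the table, and their summed level was 199, 198 and 199 CPM in CRY1 KO 1, 2 and 3, against 573, 357 and 217 CPM in WT 1, 2 and 3. That of 6 red blood cell markers was 676, 581 and 735 CPM in CRY1 KO 1, 2 and 3, against 2977, 1024 and 654 CPM in WT 1, 2 and 3. No Kupffer marker was at 0, and the part of these cells in the level of Pkm was not tested. In bulk RNA, fewer cells of a type and less RNA per cell cannot be told apart.

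Lactate and malate enzymes included the lower of the non-overlapping genes. Ldha, a lactate dehydrogenase, stood at 458, 480 and 436 CPM in CRY1 KO 1, 2 and 3, against 535, 534 and 510 CPM in WT 1, 2 and 3. All libraries labelled CRY1 KO were below all WT libraries, and the difference did not pass (log2 -0.20, SE 0.09, edgeR adjusted p = 0.231). Mdh1 and Mdh2, the cytosolic and mitochondrial malate dehydrogenases that carry reducing equivalents and oxaloacetate carbon between compartments, had log2 differences of -0.00 and 0.01, with 95% intervals from -0.26 to 0.28 and from -0.25 to 0.29.

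Opposing steps were compared as the log2 ratio of the CPM of the paired genes in each library, whose difference between groups does not depend on gene length. For 3 libraries against 3 the exact two-sided permutation test cannot give a p below 0.1, and p-values were adjusted over the 4 ratios tested, of which 3 are given. Gys2 over Pygl, synthesis over breakdown of glycogen, was -1.70, -1.76 and -1.05 in CRY1 KO 1, 2 and 3, against -2.18, -1.96 and -2.07 in WT 1, 2 and 3. Its groups did not overlap, with a difference of 0.57 (exact permutation p = 0.1, adjusted p = 0.4), which was 0.35 without CRY1 KO 3. Both genes had higher mean levels in the libraries labelled CRY1 KO, and the difference was larger for Gys2.

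Pck1 over Pklr was 4.10, 4.15 and 3.97 in CRY1 KO 1, 2 and 3, against 4.46, 3.27 and 3.23 in WT 1, 2 and 3. WT 1 exceeded all libraries labelled CRY1 KO (difference 0.42, exact permutation p = 0.4, adjusted p = 0.4), and without WT 1 the difference was 0.82. Without WT 2 it was 0.23, and without WT 3 it was 0.21. Pklr, the liver pyruvate kinase, was called higher (163, 176 and 219 CPM in CRY1 KO 1, 2 and 3, against 120, 106 and 107 CPM in WT 1, 2 and 3; log2 0.74, edgeR adjusted p = 0.0343), so both genes of this pair had higher means in the libraries labelled CRY1 KO.

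Fbp1 over Pfkl was 4.38, 4.21 and 4.28 in CRY1 KO 1, 2 and 3, against 4.02, 4.36 and 3.88 in WT 1, 2 and 3. The groups overlapped through WT 2, with a difference of 0.21 (exact permutation p = 0.3, adjusted p = 0.4). It was 0.34 without WT 2 and 0.10 without WT 3.

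**Figure D4:**
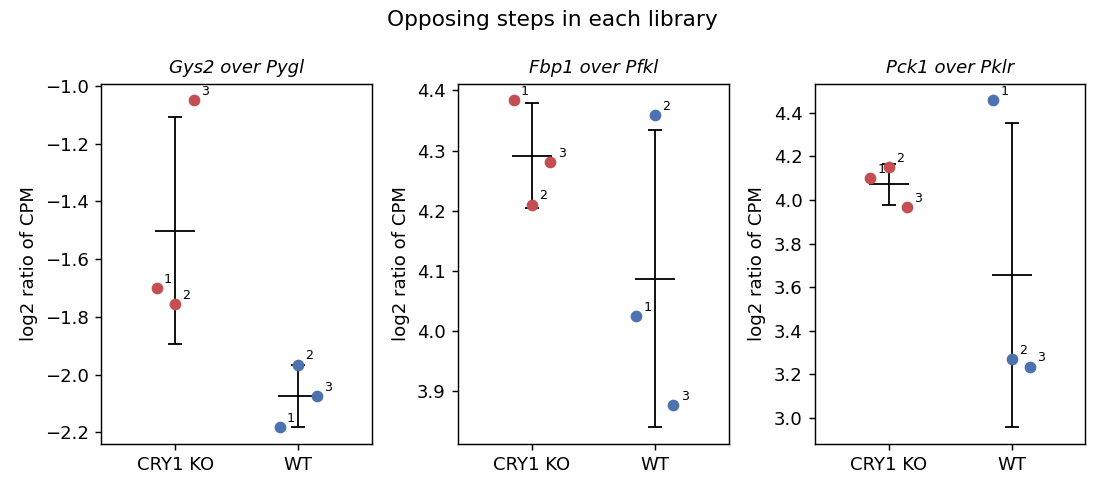
Log2 ratio of CPM of 3 pairs of opposing genes in each library, with libraries labelled CRY1 KO left of WT, replicate numbers beside the points, and bars and whiskers for mean and SD (n = 3 each); the axes do not start at 0 and differ between panels. Gys2 over Pygl separates the groups (difference 0.57), while WT 1 lies above the libraries labelled CRY1 KO for Pck1 over Pklr.

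Levels of related enzymes were compared as CPM per kilobase of merged exons, with exon lengths from GENCODE M21, which is on an earlier genome build. Liver forms prevailed at nearly every step. Pck1 averaged 1169 CPM per kilobase in libraries labelled CRY1 KO and 584 in WT, whereas Pck2 averaged 0.789 and 0.824. Gys2 made up 99.2% of the summed level of Gys1 and Gys2 in libraries labelled CRY1 KO and 98.2% in WT, and Pygl made up 99.2% and 98.8% of the 3 glycogen phosphorylases. Pfkl, by contrast, held 59.5% of the 3 phosphofructokinases in libraries labelled CRY1 KO and 58.0% in WT, with the muscle form Pfkm as the next. Among 4 PFKFB genes, Pfkfb3 held 42.8%, 42.7% and 47.9% of the summed level in CRY1 KO 1, 2 and 3, against 28.2%, 16.9% and 7.98% in WT 1, 2 and 3, and WT 1 was the highest of WT. Pfkfb1 held 50.3%, 49.8% and 43.1% in CRY1 KO 1, 2 and 3, against 62.0%, 69.98% and 75.0% in WT 1, 2 and 3. None of these shares was tested, and those of the other families come from group means.

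Other genes of the pathway were taken from lists of genes that are not members, to be read beside the 1.06% of tested genes called higher by edgeR and 5.32% by DESeq2. Of 36 tested genes of glycolysis, gluconeogenesis and pyruvate use, 2 rose and 34 did not pass by edgeR, with none called lower. At an unadjusted p under 0.05, 7 were higher and 5 lower, and DESeq2 called 6 higher and 4 lower. The called genes were Pklr and Pdk1, a kinase that inhibits pyruvate dehydrogenase (82.5, 74.8 and 96.01 CPM in CRY1 KO 1, 2 and 3, against 43.7, 35.1 and 47.8 CPM in WT 1, 2 and 3; log2 1.001, edgeR adjusted p = 0.0194). Of 19 tested glycogen genes, 1 rose, Pgm2l1, a glucose 1,6-bisphosphate synthase (log2 1.48, edgeR adjusted p = 0.0194), and none was lower by edgeR, by DESeq2 or at an unadjusted p under 0.05. DESeq2 called 3 of the 19 higher, and 5 were higher at an unadjusted p under 0.05. Of 20 regulators of glucose output, 2 rose, the transcription factor genes Foxo1 (log2 0.98) and Hnf4a (log2 0.73). None was called lower by edgeR, while 1, the glucagon receptor gene Gcgr, was lower by DESeq2 (log2 -0.27) and at an unadjusted p under 0.05. DESeq2 called 4 of the 20 higher, and 6 were higher at an unadjusted p under 0.05.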

How the data were processed

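Liver messenger RNA was measured in 3 libraries labelled CRY1 KO and 3 labelled WT, grouped by sample title. The authors deposited 1 whole number per gene and library, taken here as an estimated count. This unit was inferred, as low values peak at 3 in each library, above 1, 2 and 4. The submitters' processing notes name the build GRCm39 and the programs limma 3.42.2, StringTie 2.1.7, HISAT2 2.2.1 and Trim Galore 0.6.7. How these were set, which annotation was used and whether counting used strand is not stated there.

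Low genes were removed by filterByExpr of edgeR 4.0.16 at a minimum total of 15 and a minimum count of 10. This left 13816 of 15092 genes, among them all 36 members. Groups were compared across all genes by edgeR's quasi-likelihood test after TMM scaling, with Benjamini-Hochberg adjustment over all genes tested and a threshold of 0.05. Intervals (95%) come from limma 3.58.1, lie around its own log2 differences and are not adjusted over genes. It was run on log2 CPM, made with prior count 2, and these values also gave the log2 ratios. DESeq2 1.42.0, other scalings and filters, a replicate block and each library left out were alternatives. The procedure was tested on simulated data with planted differences. It called 13 of 67 at 1.5-fold (19.4%), 46 of 67 at 2-fold (68.7%) and 63 of 66 at 4-fold (95.5%). A further 10 calls were not planted. A member that differs by 1.5-fold or less would thus often not pass. The members, gene lists and tests were chosen with earlier results of these data known. Library totals ran between 79708703 and 91316332. Values in every library are given for members called by edgeR or DESeq2, the 12 smallest p-values, non-overlapping members with a 1.5-fold difference, paired genes and members spanning 4-fold within a group. Pkm, Pfkfb1 and the fasting genes Lpin1 and Tat were named after their values were seen. The ratio of 1 further pair was computed and is not reported here.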

Additional observations from a re-analysis of the deposited data

How the results depend on the processing

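Of the 36 members, 1 was called by edgeR with all libraries, and the same number with RLE or upper-quartile scaling, with no filter or a stricter one, with limma-trend and with a replicate block. The stricter filter kept 35 members. The count was 0 with library totals alone, 3 by DESeq2, and between 0 and 6 with a library left out. Over all genes 235 were called, 113 with library totals, 1284 by DESeq2, and between 17 (without WT 2) and 844 (without WT 3) with a library left out. With the replicate block 94 genes were called. Same-numbered libraries did not deviate together (correlations of -0.07, -0.01 and 0.07), so the numbers were not taken as pairs. The differences of the 3 ratios given kept their sign under every alternative run.

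Members near 0 changed sign, none of them called, and the cause was not tested. With upper-quartile scaling Pfkl was -0.0096 and Mdh2 -0.029, and Mdh2 was -0.0034 with library totals. Mdh1 was 0.0060 with limma and 0.0060 with the replicate block. With a library left out the log2 difference ranged from -0.11 to 0.13 for Hk1, from -0.015 to 0.093 for Pfkl, from -0.19 to 0.022 for Pck2, from -0.12 to 0.061 for Mdh1, from -0.10 to 0.11 for Mdh2, from -0.21 to 0.041 for Gyg, from -0.042 to 0.035 for Pgm1, from -0.065 to 0.011 for Phkg2, from -0.38 to 0.23 for Ppp1r3c and from -0.19 to 0.088 for Cry1. The size of a deposited unit in fragments is not known, so no counting error is given for low genes such as Ppp1r3g and Hk2.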
